A study of Mus musculus with 16 samples.

Results

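The genes described here are 9 ligands and receptors of the tumour necrosis factor (TNF) superfamily in mouse liver, namely Tnf, Tnfsf10, Tnfrsf1a, Fas, Tnfrsf10b, Tnfrsf1b, Tnfrsf12a, Tnfrsf22 and Tnfrsf23. They were found by symbol, and all 9 were present among the 25719 genes of the deposited table. The 9 symbols were chosen from earlier results of the same mice, in which Tnfrsf23 had already stood out as lower in Klrk1-/- than in WT livers on SSD. Differences between these genotypes on SSD, and between the diets in WT mice, are therefore given for the 9 genes as a description and with no p-value, and where such a difference is counted as called, nothing is read from it.

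TNF superfamily ligands are made mostly by immune cells and bind trimeric receptors on other cells. Receptors with an intracellular death domain can recruit FADD and caspase-8 and kill the cell, whereas receptors without it signal through TRAF adaptors to NF-kB and other pathways. Decoy receptors bind ligand without passing on a death signal. In the liver these receptors are known for their part in hepatocyte death and in the inflammation that follows it.

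Whole-liver RNA came from 16 male mice, 1 library per mouse, and the methods of the study give 8 to 12 weeks as the age of mice put on the diets. Of these, 4 WT C57BL6J mice (numbered 1, 2, 3 and 5) and 4 Klrk1-/- mice received a normal chow diet (NCD), and 5 WT and 3 Klrk1-/- mice received SSD, a steatosis-steatohepatitis diet rich in fat, fructose and cholesterol, for 3 weeks. Klrk1 encodes NKG2D, an activating receptor of natural killer and T cells, and Klrk1-/- mice lack it in every cell. The labels give NKG2D as the strain of the Klrk1-/- mice, and the sources used here do not say that WT and Klrk1-/- mice were littermates, so genotype and colony cannot be told apart.

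Depth on genes ran from 19892025 to 28936707 reads in a mouse. Klrk1 was between 20.1 and 71.1 normalized counts in the WT mice and between 0.966 and 8.71 in the Klrk1-/- mice, with no overlap on either diet. Mouse 1 of the WT mice on SSD stood apart, with 8.32% of genes over 2-fold from the other mice of its group. It also held the highest summed level of 12 macrophage and monocyte markers, 12581 normalized counts, against 4160 as the lowest in its group, 3315 to 4245 in WT mice on NCD and 3020 to 3492 in all Klrk1-/- mice. Mouse 1 was also the highest of its group for summed markers of stellate cells (16395, with a group median of 7326), T and NK cells, neutrophils and cholangiocytes. None of the 12 macrophage and monocyte markers was at 3 reads or fewer in all 16 mice. The part of any of these cell types in the results below was not tested. Summed levels of 8 hepatocyte markers were 2415090 to 2770930 normalized counts in WT mice on NCD and 1551570 to 2017520 on SSD. In Klrk1-/- mice they were 2353330 to 3130970 on NCD and 2136400 to 2290010 on SSD. These sums are mostly Alb. In WT mice Alb, Apoa1 and Cps1 were lower on SSD with no overlap, whereas Apob, Fabp1 and Hnf4a overlapped between the diets. In whole liver, fewer cells of a type and less RNA per cell cannot be told apart.

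Levels can be compared between genes only per length. Per kilobase of the gene width given in the table, WT livers on NCD held 1777 ± 99.8 normalized counts of Tnfrsf1a, 417 ± 75.4 of Fas, 353 ± 82.2 of Tnfrsf1b and 248 ± 35.9 of Tnfrsf12a (SD, n = 4). The other 5 genes were lower on the same scale, with 30.6 ± 2.79 for Tnfsf10, 10.2 ± 1.94 for Tnfrsf22, 7.73 ± 0.322 for Tnfrsf23, 5.91 ± 1.49 for Tnfrsf10b and 2.49 ± 1.76 for Tnf (SD, n = 4). In reads, the 4 receptors of the first group had at least 120 in each mouse, whereas Tnfrsf22, Tnfrsf23 and Tnf had at most 55. Tnfrsf10b was similarly low in every mouse but WT mouse 1 on SSD, so these 4 low genes are the less precise. The table gives Tnfrsf1a a width of 844 bases, less than the 3149 exon bases of GENCODE M39, so its place in this order depends on that width. All levels below are normalized counts without division by length.

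**Figure D1:**
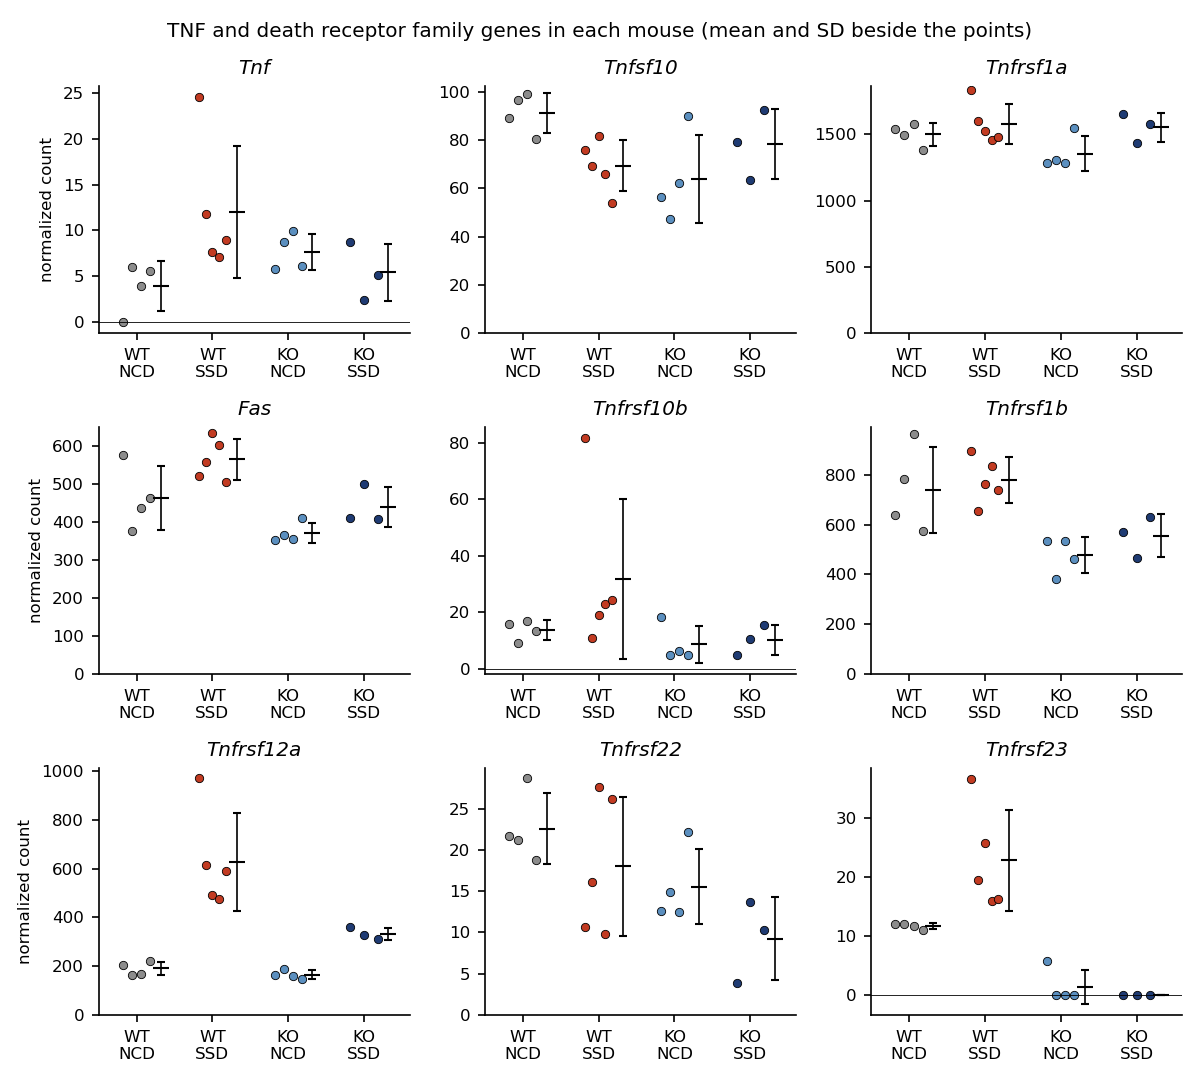
Normalized counts (vertical axes, linear and each with its own range) of the 9 family genes in each of the 16 mice, by genotype and diet on the horizontal axes (KO stands for Klrk1-/-). Points are mice, and the bar beside them is the group mean with its SD. Tnfrsf12a is higher on SSD in both genotypes, Tnfrsf23 is at 0 in the 3 Klrk1-/- mice on SSD, and mouse 1 of the WT mice on SSD holds the highest point of Tnf, Tnfrsf1a, Tnfrsf10b, Tnfrsf12a and Tnfrsf23.

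Tnf, the founding ligand of the family and a product mainly of macrophages and T cells, was close to the detection floor. It lies on chromosome 17 (35418357 to 35420983, minus strand), and gene coordinates here and below are those of the table on GRCm39. WT mice on NCD held 0, 6.04, 3.91 and 5.52 normalized counts, and WT mice on SSD held 24.6, 11.8, 7.61, 7.11 and 8.98. The Klrk1-/- values were 5.74, 8.71, 9.95 and 6.15 on NCD and 8.69, 2.41 and 5.14 on SSD. WT values on the 2 diets did not overlap, while Klrk1-/- values did, and mouse 1 was the highest of all 16. The WT means were 3.87 ± 2.73 on NCD (SD, n = 4) and 12.02 ± 7.26 on SSD (SD, n = 5), a ratio of 3.11, and 2.30 without mouse 1. These values rest on 0 to 37 reads per mouse. On NCD the Klrk1-/- mice were higher by 1.13 on the log2 scale, which did not pass an exact two-sided permutation test (p = 0.0571). SSD against NCD in Klrk1-/- mice gave -0.53 on the log2 scale (exact permutation p = 0.229, where the smallest p the 3 and 4 mice allow is 0.0571). The mean of Tnf over the mice was under the minimum of 10 for the across-gene fit in both of these comparisons and also in the other 3.

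Tnfsf10 encodes TRAIL, a ligand of death receptors found on natural killer cells, T cells and other cells (chromosome 3, 27371177 to 27396576, plus strand). WT mice ranged from 80.6 to 99.1 normalized counts on NCD and from 53.9 to 81.8 on SSD, and Klrk1-/- mice from 47.3 to 89.8 on NCD and from 63.4 to 92.6 on SSD. Its order of means was WT on NCD (91.4 ± 8.34, n = 4), Klrk1-/- on SSD (78.4 ± 14.6, n = 3), WT on SSD (69.3 ± 10.6, n = 5) and Klrk1-/- on NCD (63.9 ± 18.3, n = 4), each with its SD. Every group overlapped its neighbour in that order. Tnfsf10 was the only member whose mean was lower on SSD in WT mice and higher on SSD in Klrk1-/- mice, with log2 differences of -0.40 (SE 0.15) and 0.31 (SE 0.22). Klrk1-/- against WT on NCD gave -0.55 (SE 0.19), with a limma adjusted p of 0.0755 and an exact permutation p of 0.0857. Without mouse 4 of the Klrk1-/- mice on NCD this difference was -0.72, with a limma adjusted p of 0.0243, where the alternatives ranged from 0.024 to 0.189.

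Tnfrsf1a encodes TNFR1, the death domain receptor of TNF that most cells carry (chromosome 6, 125326325 to 125339447, plus strand). Its means were 1499.6 ± 84.2 normalized counts in WT mice on NCD, 1578 ± 154 in WT mice on SSD, 1355 ± 130.1 in Klrk1-/- mice on NCD and 1555 ± 109.6 in Klrk1-/- mice on SSD (SD, n = 4, 5, 4 and 3). All neighbouring groups overlapped. The log2 difference between the genotypes on NCD was -0.15 (SE 0.09, limma adjusted p = 0.281), and between the diets in Klrk1-/- mice it was 0.20 (SE 0.09, limma adjusted p = 0.124). Tnfrsf1a lies 4.25 megabases from Klrk1 on the same chromosome.

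Fas encodes the death domain receptor of FAS ligand (chromosome 19, 34268066 to 34305172, plus strand). WT mice held 576, 377, 437 and 462 normalized counts on NCD and 521, 557, 635, 602 and 505 on SSD. In Klrk1-/- mice there were 353, 365, 354 and 409.6 on NCD and 410.4, 499.5 and 406 on SSD. On SSD every WT mouse was above every Klrk1-/- mouse, while on NCD the ranges overlapped. The means on SSD were 564 ± 54.5 in WT (SD, n = 5) and 439 ± 52.7 in Klrk1-/- mice (SD, n = 3), a ratio of 1.29. On NCD the genotypes differed by -0.31 (SE 0.13) on the log2 scale, which did not pass (limma adjusted p = 0.117, exact permutation p = 0.0571). The gene of its ligand, Fasl, stayed at or below 5.33 normalized counts in all 16 mice.

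Tnfrsf10b encodes the mouse TRAIL death receptor (chromosome 14, 70004921 to 70021860, plus strand). WT mice held 15.7, 9.06, 16.9 and 13.2 normalized counts on NCD and 81.7, 11.0, 19.03, 23.1 and 24.5 on SSD. Klrk1-/- mice held 18.4, 4.98, 6.22 and 4.92 on NCD and 4.83, 10.4 and 15.4 on SSD. A single mouse, WT mouse 1 on SSD, was far above the other 15, and all pairs of groups overlapped. The other 15 held at most 24.5, so the values of this gene are imprecise, as those of Tnfrsf22 are. The mean on SSD in WT mice was 31.9 ± 28.4 (SD, n = 5) with that mouse and 19.4 ± 6.07 (SD, n = 4) without it, which is 2.32 and 1.41 times the mean on NCD. Klrk1-/- against WT on NCD gave -0.78 (SE 0.44) on the log2 scale and did not pass (limma adjusted p = 0.248, exact permutation p = 0.143).

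Tnfrsf1b encodes TNFR2, a TNF receptor without a death domain that is best known on leukocytes and endothelium (chromosome 4, 144940033 to 144973440, minus strand). WT mice held 638, 784, 963 and 576 normalized counts on NCD and 897, 653, 765, 835 and 741 on SSD. Klrk1-/- mice held 534, 383, 536 and 460.0 on NCD and 572, 465 and 633 on SSD. On both diets every WT mouse was above every Klrk1-/- mouse, whereas the diets overlapped within each genotype. On NCD the mean was 478 ± 72.6 in Klrk1-/- and 740.4 ± 172 in WT mice (SD, n = 4 each), a 1.55-fold difference that was called as lower (log2 difference -0.61, SE 0.16, limma adjusted p = 0.0263, exact permutation p = 0.0286, the smallest the design allows). The call was lost without mouse 2 or 3 of the WT mice or mouse 2 or 4 of the Klrk1-/- mice on NCD, where the limma adjusted p lay between 0.0508 and 0.0746 and the log2 difference between -0.48 and -0.60, and over all 18 alternatives the adjusted p ranged from 0.00315 to 0.0746. Of the 12 macrophage and monocyte markers none was called in this comparison (limma), 2 had an unadjusted p under 0.05, and neither edgeR nor DESeq2 called any. Of 6 Kupffer cell markers 1 was lower, Marco, a scavenger receptor gene (log2 -0.77, SE 0.22), a call lost in 6 of the 8 fits that left out 1 mouse, and the part of these cells in the Tnfrsf1b difference was not tested. On SSD the Tnfrsf1b ratio of WT to Klrk1-/- mice was 1.40, and the summed level of the 6 Kupffer cell markers was 5863 to 7495 normalized counts in Klrk1-/- and 8019 to 14264 in WT mice. These markers did not all agree. C6 is a large part of the sum and held 2197 to 2746 in Klrk1-/- and 2785 to 5700 in WT mice. Cd5l was also lower in Klrk1-/- mice with no overlap, whereas Clec4f overlapped (1917 to 2510 in Klrk1-/- and 1886 to 3967 in WT mice). Marco was the only marker called, as lower (log2 -2.45, SE 0.39, limma adjusted p = 0.0138), a call lost without Klrk1-/- mouse 2 or 3 on SSD. With diet in WT mice C6 fell (log2 -1.10, SE 0.18) while Cd5l rose (log2 1.54, SE 0.25).

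Tnfrsf12a encodes FN14, the small receptor of the ligand TWEAK, which lacks a death domain and is known to be induced in injured tissue (chromosome 17, 23894419 to 23896442, minus strand). WT mice held 205, 166, 169 and 223 normalized counts on NCD and 972, 613, 493, 474 and 590.3 on SSD. Klrk1-/- mice held 165, 190.4, 159 and 148 on NCD and 360.2, 329 and 312 on SSD. The groups formed 3 separate levels, with both NCD groups lowest and overlapping, the Klrk1-/- mice on SSD in between and the WT mice on SSD highest. In Klrk1-/- mice the mean rose 2.02-fold, from 166 ± 18.1 (SD, n = 4) to 334 ± 24.4 (SD, n = 3), and the gene was called (log2 difference 1.01, SE 0.12, limma adjusted p = 7.70e-05). The exact permutation p was 0.0571, which is the smallest that 3 against 4 mice can give. It was called under all 17 alternatives computed for that comparison.

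In WT mice the Tnfrsf12a mean was 191 ± 27.7 on NCD (SD, n = 4) and 629 ± 201.1 on SSD (SD, n = 5), a ratio of 3.29, and of 2.84 without mouse 1. The log2 difference was 1.67 (SE 0.19). On SSD the WT mean was 1.88 times that of Klrk1-/- mice, a log2 difference of -0.86 (SE 0.20) for Klrk1-/- against WT. Without mouse 1 the ratio was 1.63 and the log2 difference -0.69. On NCD the genotypes differed by -0.20 (SE 0.13, limma adjusted p = 0.333). The diet by genotype interaction of Tnfrsf12a was -0.66 (SE 0.25).

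Tnfrsf12a does not overlap another gene by the coordinates of the table, where its neighbour Hcfc1r1 ends 0.22 kilobases away on the opposite strand. In the later GENCODE M39 annotation, exons of Hcfc1r1 cover 100% of the exon bases of Tnfrsf12a, and whether reads were counted by strand is not given in the sources used here. Of the 100-base stretches of Tnfrsf12a transcripts there, 52.2% also occur in Hcfc1r1. Hcfc1r1 itself was not higher on SSD, with a log2 difference of -0.27 in WT mice (SE 0.10, limma adjusted p = 0.0501) and -0.40 in Klrk1-/- mice (SE 0.09, limma adjusted p = 0.00798).

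The 250 bases before the start of Tnfrsf12a are shown because the level of this gene was higher on SSD in both genotypes with no overlap, and those of Tnfrsf23 because it was at 0 in the Klrk1-/- mice on SSD. They are RefSeq sequences on GRCm38.p6 at chr17:23677450-23677699 and chr7:143685876-143686125, both read from the minus strand, and capitals mark a GC box (GGGCGG) or a TATA box (TATAAA) on either strand.
Tnfrsf12a: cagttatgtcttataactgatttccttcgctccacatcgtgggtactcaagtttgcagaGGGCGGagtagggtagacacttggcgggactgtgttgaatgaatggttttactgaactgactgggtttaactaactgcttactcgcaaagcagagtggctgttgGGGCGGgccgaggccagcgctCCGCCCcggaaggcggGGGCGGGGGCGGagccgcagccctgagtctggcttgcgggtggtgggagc
Tnfrsf23: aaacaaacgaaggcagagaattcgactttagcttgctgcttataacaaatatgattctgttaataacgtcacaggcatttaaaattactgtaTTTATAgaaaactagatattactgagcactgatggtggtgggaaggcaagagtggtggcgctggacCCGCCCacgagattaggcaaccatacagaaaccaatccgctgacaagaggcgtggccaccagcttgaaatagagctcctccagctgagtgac
The Tnfrsf12a stretch holds 5 GC boxes and no TATA box, and the Tnfrsf23 stretch holds 1 of each. RefSeq gave such a stretch for 7 of the 9 genes, with Tnfrsf22 and Tnfrsf10b not among them. A GC box was found in 5 of the 7 and in 32.7% of all 32851 promoters, and a TATA box in 2 of the 7 and in 12.4% of all. An AP-1 motif (TGANTCA, both strands) was found in 1 of the 7, Fas, and in 6.75% of all, and an ATF4 motif (TGATGNAA) and the NF-kB motif in 0 of the 7 and in 3.45% and 7.25% of all. No match overlapped another motif in the Tnfrsf12a and Tnfrsf23 stretches, apart from GC boxes that abut each other.

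Tnfrsf22 and Tnfrsf23 are mouse decoy receptors for TRAIL that lie side by side on chromosome 7 (143188543 to 143203398 and 143219546 to 143239609, both minus strand). Tnfrsf22 ranged from 18.8 to 28.7 normalized counts in WT mice on NCD and from 9.77 to 27.6 on SSD, and in Klrk1-/- mice from 12.4 to 22.1 on NCD and from 3.86 to 13.7 on SSD. Its means were 22.6 ± 4.27, 18.04 ± 8.43, 15.5 ± 4.55 and 9.27 ± 4.97 in these groups (SD, n = 4, 5, 4 and 3), and each group overlapped the next. Klrk1-/- against WT on NCD gave -0.53 (SE 0.28) on the log2 scale (limma adjusted p = 0.219, exact permutation p = 0.114), and SSD against NCD in Klrk1-/- mice gave -0.79 (SE 0.43, limma adjusted p = 0.182, exact permutation p = 0.171). These values rest on 4 to 32 reads per mouse, and 14.1% of the 100-base stretches of its GENCODE M39 transcripts also occur in other genes, so its level is uncertain to that extent.

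Tnfrsf23 held 12.1, 12.1, 11.7 and 11.0 normalized counts in WT mice on NCD and 36.5, 19.4, 25.7, 15.99 and 16.3 in WT mice on SSD. Klrk1-/- mice held 5.74, 0, 0 and 0 on NCD and 0, 0 and 0 on SSD. Every WT mouse was above every Klrk1-/- mouse on both diets, and 6 of the 7 Klrk1-/- mice had no read. On NCD the mean was 1.44 ± 2.87 in Klrk1-/- and 11.7 ± 0.488 in WT mice (SD, n = 4 each), an 8.17-fold difference that rests on 5 reads in 1 Klrk1-/- mouse and is 2.78-fold when each library at 0 is set to its floor of 3 reads (exact permutation p = 0.0286, the smallest the design allows). Its mean over the mice on NCD was under the minimum of 10, and without that minimum the log2 difference was -2.98 (SE 0.56, limma adjusted p = 0.00782). On SSD, with 22.8 ± 8.61 in WT mice (SD, n = 5) and 0 in all 3 Klrk1-/- mice, Tnfrsf23 was at least 8.68-fold lower in Klrk1-/- mice with the same floor.

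The low reads set the precision of Tnfrsf23. WT mice had 9 to 12 reads of it on NCD and 18 to 55 on SSD, and the 5 reads of Klrk1-/- mouse 1 on NCD were the only ones among 7 mice. In WT mice the SSD mean was 1.94 times the NCD mean with no overlap, and 1.65 times without mouse 1. That difference was 0.84 (SE 0.30) on the log2 scale and lay between 0.40 and 1.16 over 18 alternatives. Of the 100-base stretches of Tnfrsf23 transcripts in GENCODE M39, 8.03% also occur in another gene, in each case Tnfrsf22. No gene of the table overlaps either decoy receptor.

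Among the genes around Tnfrsf23, some were lower in Klrk1-/- mice, some had higher values there and some overlapped. Tnfrsf26, a further TNF receptor gene of this cluster, lies 37.1 kilobases from Tnfrsf23 on the far side of Tnfrsf22. WT mice held 16.9, 10.1, 13.0 and 16.6 normalized counts of it on NCD and 27.2, 16.9, 14.3, 22.2 and 21.2 on SSD, and Klrk1-/- mice held 3.45, 6.22, 2.49 and 1.23 on NCD and 1.93, 4.02 and 0 on SSD. The genotypes did not overlap on either diet. On SSD Tnfrsf26 was 10.3-fold lower in Klrk1-/- mice, or 6.44-fold with each library under 3 reads set to that floor, from 7 reads in the 3 Klrk1-/- mice. The log2 difference was -3.09 (SE 0.52, limma adjusted p = 0.0185, exact permutation p = 0.0357, the smallest the design allows). Any gene without overlap reaches that exact p, and 17.9% of all genes tested had none. Tnfrsf26 passed the minimum mean through the WT mice alone (20.4 against 1.98), so its call is a description. The call was lost without mouse 1 of the Klrk1-/- mice on SSD. On NCD Tnfrsf26 was 4.22-fold lower, or 3.31-fold with the floor (exact permutation p = 0.0286, the smallest the design allows) with a mean under the minimum for the across-gene fit.

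Mrgpre, a G protein-coupled receptor gene 92.5 kilobases on the other side of Tnfrsf23, was 8.61-fold lower in Klrk1-/- mice on NCD and 11.0-fold lower on SSD (limma adjusted p = 0.00127 and 0.00210), with no overlap on either diet. With the floor these were 6.41-fold and 10.3-fold, from 9 and 18 reads in the Klrk1-/- mice, and Mrgpre passed the minimum mean through the WT mice alone. Between them, Osbpl5, a lipid transfer protein gene 2.9 kilobases from Tnfrsf23, did not pass between the genotypes, with log2 differences of -0.28 on NCD (SE 0.23, limma adjusted p = 0.425) and 0.21 on SSD (SE 0.24, limma adjusted p = 0.638). Osbpl5 rose on SSD in both genotypes, by 0.97 in WT mice (SE 0.26, limma adjusted p = 0.0135) and 1.46 in Klrk1-/- mice (SE 0.17, limma adjusted p = 8.51e-05). Cars and Nap1l4, on the side of Tnfrsf26, gave log2 differences between the genotypes within 0.17 in size on both diets. Farther out, Dhcr7, an enzyme gene of cholesterol synthesis, did not pass on NCD (log2 0.05, SE 0.11, limma adjusted p = 0.814), was lower in Klrk1-/- mice on SSD (log2 -1.33, SE 0.19, limma adjusted p = 0.00838) and was lower on SSD in both genotypes (log2 -3.34, SE 0.13, in WT and -4.71, SE 0.16, in Klrk1-/- mice). Nadsyn1, an enzyme gene of NAD synthesis, and the transporter gene Slc22a18 had higher values in Klrk1-/- mice with no overlap on either diet and were not called, since each difference was under 1.5-fold. Nadsyn1 gave log2 differences of 0.33 on NCD (SE 0.09, limma adjusted p = 0.0375) and 0.44 on SSD (SE 0.09, limma adjusted p = 0.0392). For Slc22a18 they were 0.31 on NCD (SE 0.10, limma adjusted p = 0.0515) and 0.44 on SSD (SE 0.10, limma adjusted p = 0.0411).

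**Figure D2:**
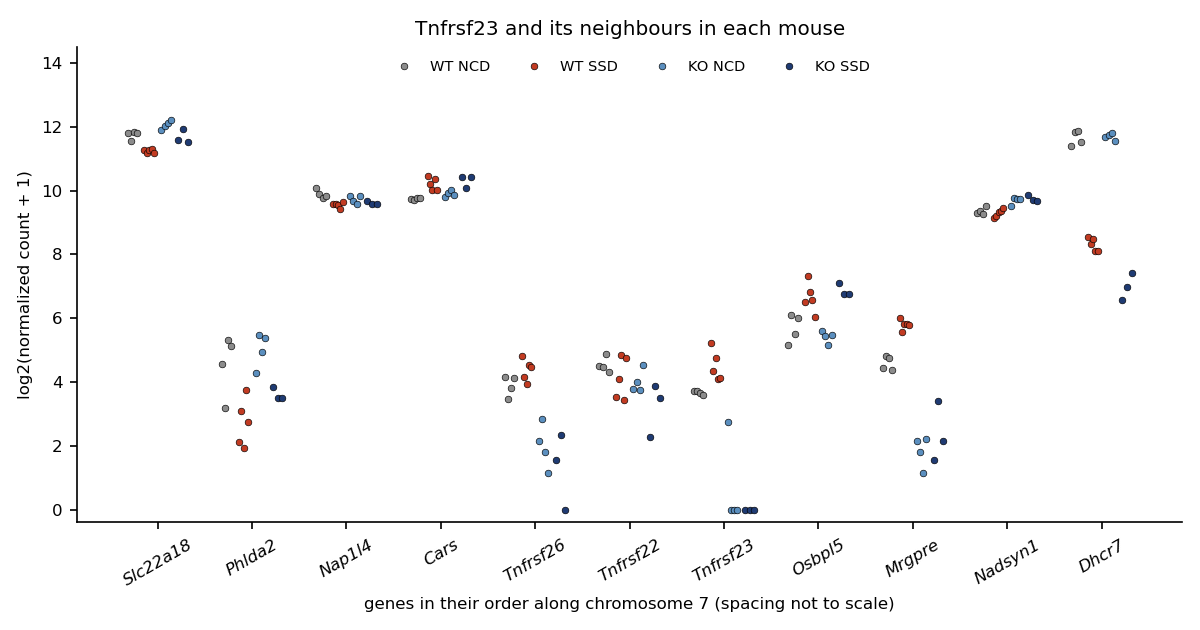
Levels of Tnfrsf23 and the genes within 200000 bases of it that had a mean of at least 5 normalized counts, as log2(normalized count + 1) on the vertical axis, with the genes in chromosomal order on the horizontal axis. Points are mice, coloured by group (KO stands for Klrk1-/-). Klrk1-/- mice lie below WT mice on both diets for Tnfrsf26, Tnfrsf23 and Mrgpre, and above them for Slc22a18 and Nadsyn1, while Tnfrsf22 and Osbpl5 overlap.

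Over the family as a whole, 8 of the 9 genes passed the minimum mean for SSD against NCD in WT mice, and 2 were called, both higher, Tnfrsf12a and Tnfrsf23. Of all 13091 genes tested there, 19.3% were called, 11.9% higher and 7.32% lower. For Klrk1-/- against WT on SSD, 1 of 8 was called, Tnfrsf23 as lower, where 2.13% of all genes were called, 0.709% higher and 1.42% lower. Nothing is read from these counts, since both comparisons were known when the genes were chosen. Values did not overlap between groups for 2 of the 8 in the first comparison (Tnfrsf12a and Tnfrsf23), where 29% of all genes tested did not, and also for Tnf, which was under the minimum mean. In the latter they did not overlap for 4 of the 8 (Tnfrsf23, Tnfrsf12a, Tnfrsf1b and Fas), where 17.9% of all genes tested did not, and nothing is read from these counts either.

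For Klrk1-/- against WT on NCD, 7 of the 9 genes passed the minimum mean and 1 was called, Tnfrsf1b as lower, against 5.79% of all genes, 2.92% higher and 2.87% lower. The 7 log2 differences lay between -0.78 and -0.15 with a median of -0.53, beside 0.0018 over all genes tested, and 6 of the 7 were not called. Values of 1 of the 7, Tnfrsf1b, did not overlap, where 19.3% of all genes tested did not. Of the 2 genes under the minimum mean, Tnfrsf23 had the lower mean in Klrk1-/- mice and Tnf the higher. For SSD against NCD in Klrk1-/- mice, 6 of the 9 passed the minimum mean and 1 was called, Tnfrsf12a as higher, against 13.1% of all genes, 6.54% higher and 6.6% lower. Tnfrsf12a was also the 1 of the 6 without overlap, where 37.6% of all genes tested had none. In the test of the interaction, limma called 0 of 8 (2 at an unadjusted p under 0.05), and neither edgeR nor DESeq2 called any, against 0.849% of all genes, 0.291% higher and 0.559% lower, from which nothing is read, since the interaction holds both known comparisons. Scaling all mice to the same total moved the median of all genes to 0.34 for SSD against NCD in WT mice, 0.25 in Klrk1-/- mice and -0.12 for the genotypes on SSD on the log2 scale, and the sign of no called member changed.

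**Figure D3:**
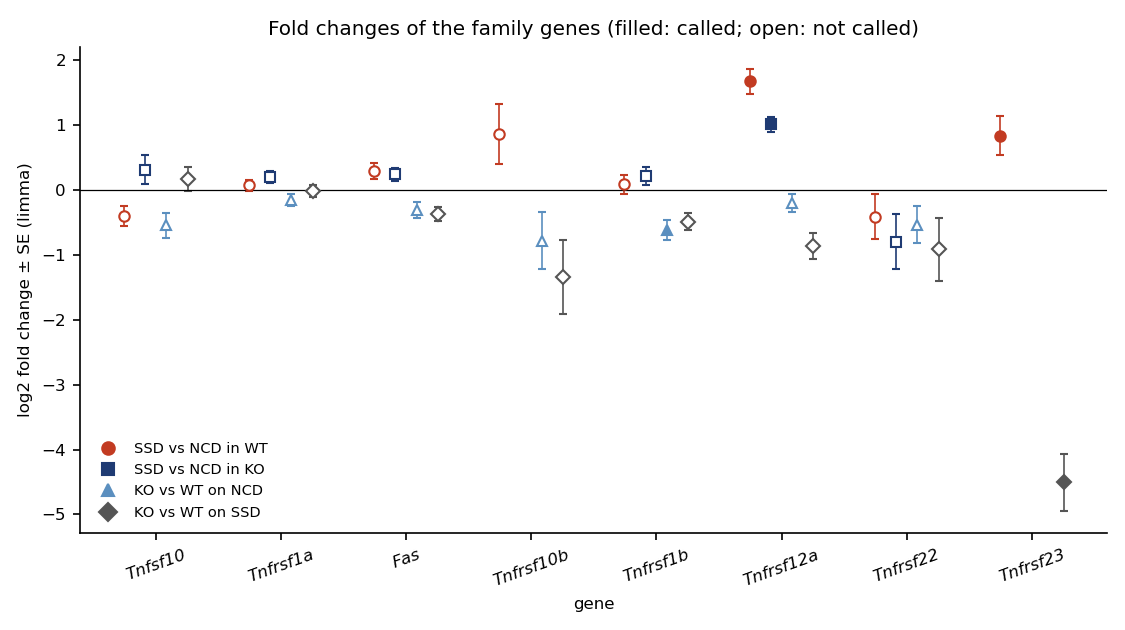
Log2 fold changes from limma (vertical axis) of the 8 family genes that passed the minimum mean in at least 1 comparison (horizontal axis), with SE bars. Colours and symbols give the comparison (KO stands for Klrk1-/-), filled symbols met the rule for a call and open ones did not, and Tnf is not shown. Tnfrsf12a is above 0 for diet in both genotypes, and Tnfrsf23 lies at -4.50 for the genotypes on SSD, a value that depends on the count of 1 added before taking logs.

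The other ligands and receptors of the superfamily gave a wider view, with 37 more genes in the table. For SSD against NCD in WT mice, 5 of the 18 that passed the minimum mean were called, all higher. Among ligands these were Tnfsf12, which encodes TWEAK, the ligand of the Tnfrsf12a product, and Tnfsf13, which encodes APRIL, a factor for B and plasma cells. Tnfsf12 rose from 300.4 to 472 normalized counts, 1.57-fold (log2 0.64, SE 0.15, limma adjusted p = 0.00762), and the call was lost without mouse 2 on NCD or mouse 1 on SSD, where the ratio without mouse 1 was 1.42. Tnfsf13 rose 1.88-fold (log2 0.86, SE 0.18, limma adjusted p = 0.00398).

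Among receptors Tnfrsf19 (TROY), Tnfrsf11a (RANK, the receptor of osteoclast formation) and Eda2r, a receptor of ectodysplasin A2 and known p53 target, were higher in WT mice on SSD. Eda2r held 10.9, 2.01, 5.21 and 4.41 normalized counts in WT mice on NCD and 77.7, 60.0, 21.9, 45.3 and 53.9 on SSD. In Klrk1-/- mice the level was 14.9, 4.98, 9.95 and 6.15 on NCD and 4.83, 22.5 and 15.4 on SSD. WT mice on SSD stood above all other mice but for mouse 3, which was below the highest Klrk1-/- mouse on SSD. The rise in WT mice was 9.20-fold (log2 3.05, SE 0.44, limma adjusted p = 3.15e-04, exact permutation p = 0.0159, the smallest the design allows). In that comparison Eda2r passed the minimum mean through the mice on SSD alone. Klrk1-/- against WT on SSD did not pass for Eda2r (log2 -1.90, SE 0.49, limma adjusted p = 0.0672), nor did the interaction (log2 -2.56, SE 0.72, limma adjusted p = 0.0948), whereas DESeq2 called both. Tnfrsf19 rose 2.36-fold and Tnfrsf11a 2.35-fold (limma adjusted p = 0.00172 and 0.0363). Tnfrsf11a lost its call in 7 of the 9 fits that left out 1 mouse (all but those without mouse 1 or 5 on SSD), with a limma adjusted p of up to 0.0834.

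In Klrk1-/- mice 2 of 17 of these genes were called with diet, both higher, Tnfsf13 (log2 0.80, SE 0.14, limma adjusted p = 0.00112) and Tnfrsf19 (log2 0.78, SE 0.16, limma adjusted p = 0.00365). The share over all genes tested was 13.1%, 6.54% higher and 6.6% lower. Between the genotypes on SSD 1 of 18 was called, Tnfrsf26 as described above, beside 2.13% of all genes tested. On NCD, where 5.79% of all genes tested were called, limma called 0 of 15, and edgeR and DESeq2 called none. The 1 gene at an unadjusted p under 0.05 also had a limma adjusted p under 0.05, but its change was not above 1.5-fold. For the interaction limma called 0 of 18, with 2 at an unadjusted p under 0.05, beside 0.849% of all genes tested. There edgeR called none and DESeq2 called 1, Eda2r.

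**Figure D4:**
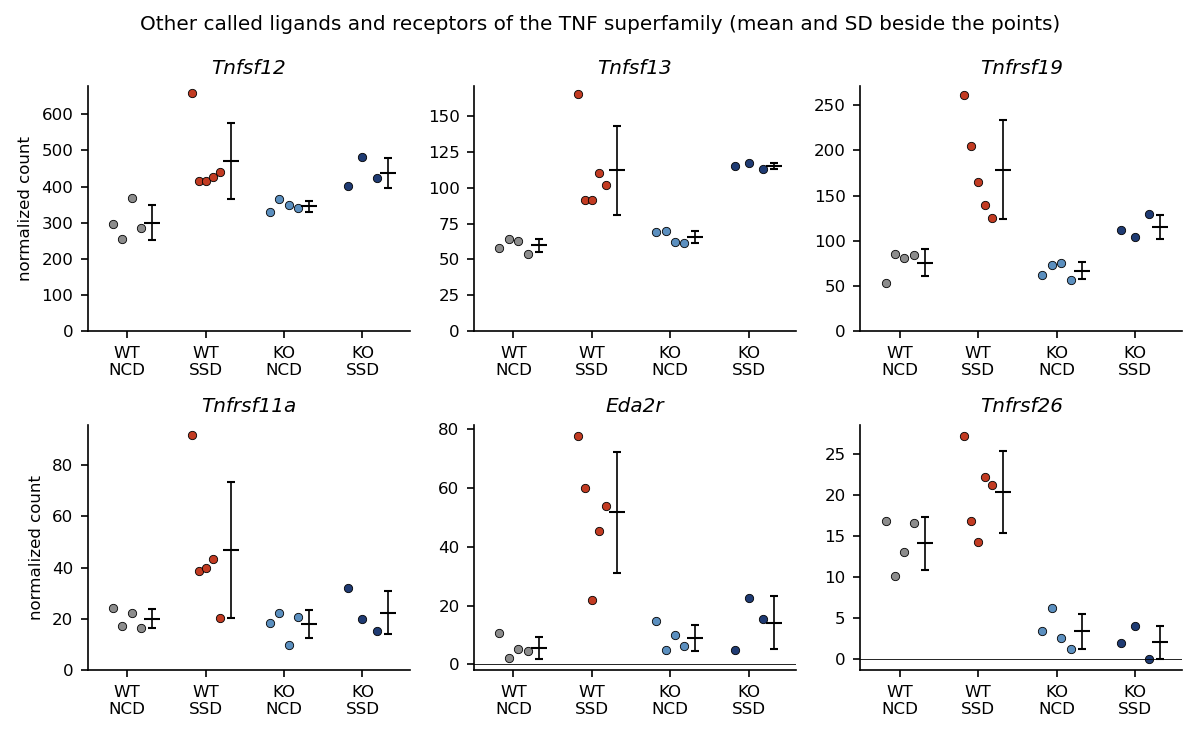
Normalized counts (vertical axes, linear and each with its own range) of the 6 other superfamily genes that were called in at least 1 comparison, in each mouse, by genotype and diet on the horizontal axes (KO stands for Klrk1-/-). Points are mice, and the bar beside them is the group mean with its SD. Eda2r lies between 2.01 and 10.9 in WT mice on NCD and between 21.9 and 77.7 on SSD, and Tnfrsf26 is at or below 6.22 in all Klrk1-/- mice.

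Genes that act downstream of these receptors were counted by list. For SSD against NCD in WT mice, 2 of 21 receptor adaptors were called, both higher, Tnfaip3, which encodes the NF-kB inhibitor A20 (log2 1.68, SE 0.35), and Traf1 (log2 1.34, SE 0.33). Of 20 genes of death execution 6 were higher and 2 lower, led by Pmaip1 (NOXA, log2 1.83, SE 0.39) and Bbc3 (PUMA, log2 -0.74, SE 0.19), both BH3-only inducers of apoptosis. Of 12 NF-kB factors 1 was higher, Relb (log2 1.54, SE 0.36), and of 19 NF-kB targets 7 were higher, led by Ier3 (log2 1.88, SE 0.35). Of 14 p53 targets 6 were higher and 1 lower, and of 8 rows of CHOP and ATF4 targets 4 were higher, the stress-induced factor Atf3 (log2 2.96, SE 0.31), Chac1, Asns and Trib3, with Ddit3 counted at 2 rows of that name. Of 7 genes that release TNF or control its mRNA 3 were higher, Rhbdf1, a partner of the TNF sheddase ADAM17 (log2 1.12, SE 0.15), Zfp36l2 and Rhbdf2, of which Rhbdf2 lost its call without mouse 1 or 2 on NCD or mouse 1 or 4 on SSD (limma adjusted p of up to 0.0609). Other calls counted here also depended on single mice. Bcl2 and Ripk3 of death execution and Ccl2 of the NF-kB targets were lost in 5 of the 9 fits that left out 1 mouse. Among the p53 targets Trp53inp1 lost its call in 3 of them and Phlda3 in 1. The medians of these lists ran from -0.06 for adaptors to 1.34 for CHOP and ATF4 targets, against -0.0015 for all genes, and they were not tested as sets. In the same comparison 8 of the 12 macrophage and monocyte markers were higher, led by Trem2 (log2 2.74, SE 0.55), and 5 without mouse 1, and their part in these counts was not tested.

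For Klrk1-/- against WT on SSD, 1 adaptor was higher (Map3k5, log2 0.74, SE 0.11) and 1 lower (Tnfaip3, log2 -1.87, SE 0.40), which with Relb and Cxcl10 makes up the 3 of 19 NF-kB targets that were lower. Relb was also the 1 lower gene among the NF-kB factors (log2 -1.26, SE 0.25), Trp53inp1 among the p53 targets (log2 -1.29, SE 0.17) and 2 of 8 rows among the CHOP and ATF4 targets, Atf3 (log2 -2.82, SE 0.35) and Chac1 (log2 -1.53, SE 0.19). Of these, all 3 lower NF-kB targets, Tnfaip3, Relb and Cxcl10, lost their calls in 6 of the 8 fits that left out 1 mouse (without mouse 2, 3 or 4 of the WT or any of the 3 Klrk1-/- mice on SSD, with limma adjusted p of up to 0.152, 0.119 and 0.140), Map3k5 without Klrk1-/- mouse 1 or 3 (up to 0.0761) and Trp53inp1 without Klrk1-/- mouse 1 (0.0543), and Atf3 and Chac1 kept their calls in all 8. With DESeq2 the lower genes numbered 6 NF-kB targets and 5 p53 targets, with equal totals 3 p53 targets, and without WT mouse 1 on SSD 5 and 2. Limma called 0 of 20 genes of death execution (6 at an unadjusted p under 0.05) and 0 of 7 of TNF release (2 at an unadjusted p under 0.05), and edgeR and DESeq2 called none of them. Of all genes tested between the genotypes on SSD, 2.13% were called, 0.709% higher and 1.42% lower. Of the 12 macrophage and monocyte markers 2 were lower in this comparison, Cd68 and Mpeg1, and 6 without mouse 1. Cd68 lost its call without any 1 of the 3 Klrk1-/- mice on SSD, and Mpeg1 in the same 6 fits as the NF-kB targets.

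On NCD the genotypes differed at 3 of 19 NF-kB targets, all lower in Klrk1-/- mice, which were Bcl3 (log2 -1.13, SE 0.23), Csf1 (log2 -0.79, SE 0.14) and Icam1 (log2 -0.73, SE 0.20, a call lost in 7 of the 8 fits that left out 1 mouse). Higher were 2 of 12 p53 targets, the cell cycle inhibitor Cdkn1a (log2 1.26, SE 0.23) and Bbc3 (log2 0.92, SE 0.10), the latter also the 1 gene of death execution. The genotypes also differed on NCD at Map3k5 among the adaptors (log2 0.85, SE 0.12) and at Trib3 among the CHOP and ATF4 targets (log2 0.93, SE 0.20). Limma called 0 of 12 NF-kB factors (1 at an unadjusted p under 0.05) and 0 of 7 genes of TNF release (2 at an unadjusted p under 0.05), with none called by edgeR or DESeq2. Of all genes tested between the genotypes on NCD, 5.79% were called, 2.92% higher and 2.87% lower. For the diet in Klrk1-/- mice the share was 13.1%, 6.54% higher and 6.6% lower. With diet in Klrk1-/- mice, limma, edgeR and DESeq2 called 0 of 21 adaptors (6 at an unadjusted p under 0.05 in limma), and 4 of 18 NF-kB targets were higher (Ier3, Vcam1, Icam1 and Relb) and 1 lower, Cxcl1 (log2 -1.57, SE 0.17). Death execution had 2 genes higher, the BH3-only gene Bcl2l11 (log2 1.58, SE 0.19) and Casp6, and 2 lower, led by Bbc3. NF-kB factors had 2 of 12 higher, Map3k14, the kinase NIK (log2 0.81, SE 0.15), and Relb, and the highest NF-kB target was Ier3 (log2 1.12, SE 0.27). Genes of TNF release had 2 of 7 higher, Rhbdf1 (log2 0.77, SE 0.12) and Zfp36l2, and 1 lower, Zfp36, whose product destabilises Tnf mRNA (log2 -0.86, SE 0.12). Of 13 p53 targets 1 was higher, Sesn2 (log2 0.91, SE 0.14), and 3 were lower, Bbc3 (log2 -1.25, SE 0.11), Btg2 and Trp53inp1, and of the 8 rows of CHOP and ATF4 targets 3 were higher, the asparagine synthetase gene Asns (log2 2.28, SE 0.35), Trib3 and Ppp1r15a. In Klrk1-/- mice the diet calls of Relb (without mouse 1 or 2 on SSD), Zfp36l2 (without mouse 2 on NCD), Ppp1r15a (without mouse 2 on NCD or mouse 1 or 2 on SSD) and Trp53inp1 (without mouse 1 on NCD or mouse 1 or 2 on SSD) depended on 1 mouse.

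In the test of the interaction, Cdkn1a among the p53 targets (log2 -2.19, SE 0.41) and Atf3 among the CHOP and ATF4 targets (log2 -2.35, SE 0.43) were called, and both had the larger diet difference in WT mice. The call of Atf3 was lost without Klrk1-/- mouse 3 on SSD (limma adjusted p = 0.0581). Limma called 0 of 21 adaptors (2 at an unadjusted p under 0.05), 0 of 20 genes of death execution (7), 0 of 12 NF-kB factors (1), 0 of 19 NF-kB targets (4) and 0 of 7 genes of TNF release (1). Of these lists edgeR called none, and DESeq2 called 1 gene, the NF-kB target Bcl3. Over all genes tested limma called 0.849% in the interaction, 0.291% higher and 0.559% lower.

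The 3 genes most like each member were taken by Pearson's r of log2(normalized count + 1) over the 16 mice, among about 13067 genes, with no test, since the points share the 4 groups. Tnfrsf23 was most like Tdg, a DNA glycosylase gene (r = 0.926), Mrgpre (0.910) and Cd81, a tetraspanin gene (0.907), of which Mrgpre and Cd81 lie on the same chromosome, the latter 597.9 kilobases away. With the group means removed these r were 0.138, 0.2497 and 0.0396. Tnfrsf12a was most like Iqgap1 (0.976), Acot9 (0.975) and Hsd17b13, a lipid droplet enzyme gene (0.974), which were 0.833, 0.807 and 0.674 with the group means removed.

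Tnfrsf10b was most like Aen, a p53-responsive nuclease gene (0.887), Golt1b (0.879) and the innate immune receptor gene Tlr2 (0.877). Tnf was most like Ggta1 (0.894), Sema6d (0.885) and Mcam (0.868), and Tnfrsf1b most like Parp14 (0.905), Rp2 (0.903) and Dst (0.884). For Tnfrsf1a the genes were Rhoa (0.875), Actr3 (0.868) and Epha3 (0.864), and for Fas they were Laptm4a (0.874), P2ry1 (0.863) and Ptp4a1 (0.862). Tnfrsf22 was most like Errfi1 (0.850), Scamp3 (0.847) and Rmdn2 (0.798), and Tnfsf10 most like Carhsp1 (0.827), Sfmbt1 (0.802) and Dnajb12 (0.790). Among the genes beside the remaining members, Nceh1 next to Tnfsf10 rose with diet in WT (log2 0.76, SE 0.13) and in Klrk1-/- mice (log2 0.88, SE 0.10), Scnn1a next to Tnfrsf1a fell in both (log2 -1.37, SE 0.26, and -0.79, SE 0.13), and Plekhg6 on its other side rose in Klrk1-/- mice (log2 0.67, SE 0.14), a call lost without mouse 4 on NCD or mouse 1 on SSD (log2 0.56 at the lowest).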

How the data were processed

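Whole-liver RNA of 16 mice was analysed, with groups as the labels give them. The labels name an mRNA library kit and the paper's methods a total RNA kit. The authors sequenced single 100-base reads, ran FastQC, aligned to GRCm39 using STAR, counted genes using FeatureCounts, and deposited a signal per gene, the normalized count, which is a count divided by 1 factor per sample. DESeq2 is named too. Whether counting used strand is not given in the sources used here.

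The deposited values were whole multiples of 1 step per sample, which gave whole reads for 100% of them (tolerance 0.01 reads). Limma 3.58.1 (trend, R 4.3.3) was fitted to log2(normalized count + 1) for all genes with a mean of at least 10 in the mice of a model, with Benjamini-Hochberg adjustment, and fold changes on this scale understate those of low genes. Called means an adjusted p below 0.05 together with a change above 1.5-fold. Exact two-sided permutation tests over mice served for single genes, namely the members and, of the other superfamily genes, only Tnfrsf26 and Eda2r. Alternatives were edgeR 4.0.16 and DESeq2 1.42.0 on recovered reads, other pseudocounts, minimum means, scalings and fold limits, a replicate block, 1 fit of all groups, and each mouse left out. The replicate block kept only mice whose number occurs in every group compared, so its results differ in the mice used too. The floor was 3 reads per library. No replicate pair agreed within sampling noise (chi-square per gene of at least 14.2). The labels do not say that mice came from separate litters or cages, so p-values measure the spread between these mice.

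The members, gene lists and rules were chosen with earlier results of these data known. Named were all members, each called superfamily gene, the called genes with the largest rise and fall in each downstream list, the 3 genes most like each member, and overlapping or adjacent genes with a call. Further genes of small counts, and Dhcr7, Cars, Nap1l4, Nadsyn1 and Slc22a18 near Tnfrsf23, were named after their values were seen. Some genes of the lists are not reported here by name. Overlaps and shared stretches were read from GENCODE M39. Scripts were tested on simulated data.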

Additional observations from a re-analysis of the deposited data

Results flagged for a closer look

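Among the 9 members and the 6 other superfamily genes named, in 45 groups of 4 or 5 mice, 9 values had a gap to the next mouse that exceeded Dixon's 95% critical share of the range of their group, where chance gives about 1 group in 20. In WT mice on SSD, mouse 1 was the highest for Tnf (24.58 normalized counts), Tnfrsf10b (81.71), Tnfrsf12a (971.8), Tnfsf12 (658.3) and Tnfsf13 (165.4). Within its group this mouse also had the highest summed markers of macrophages and monocytes, stellate cells, T and NK cells, neutrophils and cholangiocytes. The part of any of these cells in these values was not tested. In Klrk1-/- mice on NCD, mouse 1 was the highest for Tnfrsf23 (5.744, the only one above 0) and Tnfrsf10b (18.38), and mouse 4 for Tnfrsf1a (1550 to the nearest count). In WT mice on NCD, mouse 1 was the lowest for Tnfrsf19 (53.06).

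The effect of diet differed between the genotypes for 3 named genes of the lists, none of them a member (limma interaction). Atf3 rose by 2.96 on the log2 scale in WT mice and gave 0.61 in Klrk1-/- mice, an interaction of -2.35 (SE 0.43, limma adjusted p = 0.0166). For Cdkn1a these were 2.52 and 0.34, with an interaction of -2.19 (SE 0.41, limma adjusted p = 0.0181). Cd68, a macrophage gene, gave 1.89 and 0.31, with an interaction of -1.57 (SE 0.26, limma adjusted p = 0.0107).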

How the results depend on the processing

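Every called member kept its sign in each alternative run, and for genotype on NCD and diet in Klrk1-/- mice 219 of the members' 225 recomputed values kept their side of the rule for a call, 2 gained a call (Tnfsf10) and 4 lost one (Tnfrsf1b). In the other 3 comparisons, described with no test, 472 of 484 moved by less than the largest log2 SD among the groups compared and 12 further. That limit is wide for genes of few reads. The rule was no longer met 12 times (Tnfrsf23, diet in WT mice) and newly met 7 times (Tnfrsf12a 5, Fas 1 and Tnfsf10 1). Of recomputed counts of called genes 174 stayed within 1.5 times the count reported and 40 did not. The cause of these changes was not tested.

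With all mice, 2, 1, 1, 1 and 0 members were called for diet in WT, genotype on SSD, genotype on NCD, diet in Klrk1-/- mice and the interaction, and 5, 1, 0, 2 and 0 other superfamily genes. For diet in WT mice, 1 member was called with a fold limit of 2, a pseudocount of 10, no minimum mean, a minimum mean of 50, the replicate block or 1 fit of all 4 groups, and other genes numbered 3 with a fold limit of 2 or a minimum mean of 50 and 10 with equal totals. For genotype on SSD, members numbered 0 with a minimum mean of 50, which leaves Tnfrsf23 untested, and 2 with equal totals, DESeq2, the replicate block or all 4 groups, and other genes 0 with a minimum mean of 50 and 2 with DESeq2, the replicate block or all 4 groups. For genotype on NCD, members numbered 0 with a fold limit of 2 and 2 with no minimum mean or the replicate block, and other genes 1 with no fold limit or no minimum mean. For diet in Klrk1-/- mice, other genes numbered 0 with a fold limit of 2, 4 with no fold limit and 6 with equal totals, and for the interaction 1 with DESeq2.

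Leaving out 1 mouse gave 1 to 2 members for diet in WT, 1 to 2 for genotype on SSD (2 without WT mouse 1 on SSD), 0 to 1 for genotype on NCD, 1 for diet in Klrk1-/- mice and 0 for the interaction, and 3 to 6, 0 to 1 (0 without Klrk1-/- mouse 1 on SSD), 0, 2 and 0 other genes. The 3 came without WT mouse 2 on NCD. Members for diet in WT mice numbered 2 without WT mouse 4 or 5 on SSD and 1 without any other. The labels do not say whether replicate numbers pair the mice. Correlations of same-numbered deviations ran from -0.133 to 0.246, which cannot settle it. With the replicate block, Tnfsf10 was called as lower in Klrk1-/- mice on NCD (log2 -0.78, limma adjusted p = 0.024). For that comparison the block also leaves out WT mouse 5 and Klrk1-/- mouse 4. Leaving out that Klrk1-/- mouse alone already gave a call, so the block adds no separate result for Tnfsf10.

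Over all genes, 62% of calls for diet in WT mice were higher, against 89.6% with equal totals, and 49.8% against 81.6% in Klrk1-/- mice, 33.3% against 16% for genotype on SSD (23% with DESeq2) and 34.2% against 19.6% for the interaction. Calls for genotype on SSD numbered 279, and 669 with DESeq2, 595 with the replicate block and 557 with all 4 groups. Without Klrk1-/- mouse 1, 2 or 3 on SSD they numbered 45, 80 and 61, and without WT mouse 1, 2 or 3 on SSD 447, 143 and 135. For genotype on NCD they numbered 744, 1129 with the block and 425 without Klrk1-/- mouse 3 on NCD, for diet 2522 in WT and 1696 in Klrk1-/- mice, and 3897 and 2603 with equal totals, and for the interaction 111, 354 with DESeq2, 51 with the block, and 37 to 185 without 1 mouse (37 and 39 without Klrk1-/- mouse 3 or 1 on SSD, 63 and 68 without Klrk1-/- mouse 2 or 1 and 69 without WT mouse 1 on NCD, 66 and 185 without WT mouse 4 or 5 on SSD). A fold limit of 2 gave 151, 219, 1179, 704 and 70 for genotype on SSD and on NCD, diet in WT and in Klrk1-/- mice and the interaction, and no limit gave 1679, 4568 and 3790 for the middle 3. Of the downstream lists, equal totals raised the counts for diet in WT mice from 2 to 4 adaptors, 1 to 6 NF-kB factors and 7 to 11 NF-kB targets, and in Klrk1-/- mice from 5 to 9 NF-kB targets and 3 to 5 CHOP and ATF4 targets, edgeR lowered those for genotype on SSD from 2 adaptors to 1, and DESeq2 raised those for the interaction from 1 to 3 p53 targets and 1 to 3 CHOP and ATF4 targets. Depth limits Tnf, Tnfrsf22 and Tnfrsf23, each at 55 reads or fewer in every mouse. It also limits Tnfrsf10b, at or below 24.5 normalized counts in every mouse but WT mouse 1 on SSD.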
